A study of Mus musculus with 14 samples.

Results

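Nes-GFP high and Nes-GFP low bone marrow stromal cells (BMSCs) of the same kind of leukemic mouse were set against each other. The libraries were chosen by their labels alone, 2 of leukemic Nestin high cells (high 1 and high 2) and 4 of leukemic Nestin low cells (low 1 to low 4), which are 6 of the 14 samples of the series. Of 27099 genes in the count table, 16004 (59.1%) reached 10 counts in 2 or more of these 6 libraries and were tested. All 6 libraries came from iMLL-AF9 mice, which carry rtTA in the ROSA26 locus, a human MLL-AF9 fusion under a tetracycline-response element, and the Nes-GFP transgene. Doxycycline was given to all of them and the mice were killed once leukemia was evident, so genotype, drug and disease were shared by both groups. Bones were crushed and digested with collagenase, red cells were lysed, and living GFP+ cells that lacked CD45 and CD31 were sorted (the study's methods also name Ter119). GFP in these mice follows regulatory sequence of the Nes gene and not the nestin protein, and the GFP level that divided high from low is not given in the sources used here. A library holds the cells of a single mouse or of a pool of 2 mice, without a record of which, and nothing says that numbered samples of a group are separate mice, so p-values measure only the spread between these samples. For comparison, 2 Nestin high and 6 Nestin low libraries of normal mice, which received sucrose in place of doxycycline, were fitted together with them.

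Nestin is an intermediate filament protein of neural and mesenchymal progenitors. In the marrow, bright Nes-GFP cells are known to lie along arterioles and to carry pericyte genes, while dim cells form a wider network around sinusoids that carries the leptin receptor. Both kinds of cell supply CXCL12 and stem cell factor, the chemokine and growth factor that hold blood stem cells in their niche, and MLL-AF9 leukemia is a myelomonocytic disease that fills this space with blasts.

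The 6 libraries held 5615941 to 10353438 counts on genes, and 18177 to 20093 genes had at least 1 count. Levels below are CPM, each gene's counts per 1000000 counts of its library. High 1 and high 2 stood apart from each other, with a Spearman rank correlation of 0.58 over the genes tested against 0.582 to 0.761 between the Nes-GFP low libraries. Each high library was closer to some low libraries than to the other high one: the correlation was 0.716 between high 2 and low 1, and 0.658 and 0.636 between high 1 and low 2 and low 1. Over all pairs of a high and a low library it ran from 0.55 to 0.716. Among genes at 10 CPM or more in either library of a pair, 32.6% differed at least 8-fold between high 1 and high 2, against 10.7 to 27.1% between low libraries. The high libraries also lacked more genes: of 10494 genes that averaged 10 CPM or more in normal Nestin low libraries, 17.9% and 14.5% lay under 1 CPM in high 1 and high 2, against 2.38 to 11% in the low libraries. Both high libraries missed the same 688 of these genes (36.7% of those missed by high 1 and 45.2% of those missed by high 2), of which 295 were at 1 CPM or more in all 4 low libraries. Xist, the RNA of the inactive X chromosome, was at 263, 322 and 540 CPM in high 2, low 1 and low 4 and at 5.42, 2.66 and 2.22 CPM in high 1, low 2 and low 3, and Ddx3y of the Y chromosome had the opposite order, so that each group held libraries of both kinds. Xist and Ddx3y were picked with their values known. In bulk RNA of sorted cells, fewer cells of a type and less RNA per cell cannot be told apart.

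Nes itself (chr3:87971078-87980451, plus strand, GRCm38) followed the labels. It lay at 28.3 and 24.6 CPM in high 1 and high 2, and at 1.63, 6.31, 0.483 and 0 CPM in low 1 to low 4. Both high libraries were above all 4 low libraries. The log2 fold change was 3.92 with a standard error (SE) of 1.63, and its adjusted p was 0.519 (edgeR quasi-likelihood test, Benjamini-Hochberg over all genes tested). Leaving out any single library kept the fold change between 3.51 and 5.41. In normal mice the fold change was 5.13.

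Across all genes, no gene passed an adjusted p of 0.05 in edgeR in either direction (0 of 16004, 0%, higher and 0%, lower), and the smallest adjusted p was 0.102. At an unadjusted p under 0.05, 315 genes (1.97%) had higher and 1176 genes (7.35%) lower levels in Nes-GFP high cells. Both high libraries lay above all 4 low libraries for 781 genes (4.88%) and below all of them for 1979 genes (12.4%). With CPM scaled by the trimmed mean of M-values (TMM), these counts were 1180 and 1549. DESeq2 on the same counts called 66 genes (0.412%) higher and 973 genes (6.08%) lower, and limma-voom called 1 gene higher, Fam186a, and 0 lower. The median log2 fold change over all genes was -0.03 with TMM and -0.29 with library totals only, and the median SE was 1.28. The asymmetry moved with the missing genes given above, whose part in it was not tested.

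**Figure D1:**
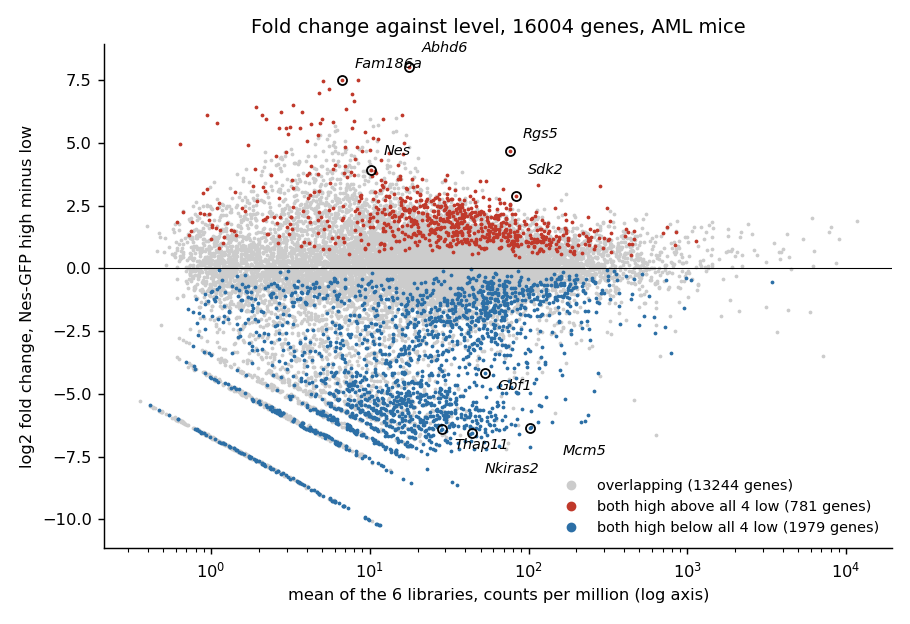
Log2 fold change of Nes-GFP high minus low in AML mice (vertical) against the mean of the 6 libraries in CPM (horizontal, log axis), 1 point per gene. Red points are the 781 genes with both high libraries above all 4 low libraries and blue points the 1979 genes below them; the slanting lines at the lower left are genes with 0 or a few counts in the high libraries, whose fitted fold change follows from their level in the low ones.

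Among the genes with higher levels, 15 were taken by the smallest p from those with both high libraries above all low ones and a mean of at least 10 CPM in the high group. The first was Fam186a, a little studied gene on chromosome 15, at 26.5 and 13.3 CPM in high 1 and high 2 and at 0.109, 0, 0.193 and 0.178 CPM in low 1 to low 4. Its log2 fold change was 7.48 (SE 1.36, edgeR adjusted p = 0.174, DESeq2 adjusted p = 0.000225). It was at 0 in both normal Nestin high libraries. Tox, a nuclear factor best known from T cell development, was at 35.1 and 6.47 CPM against 0.109 to 0.386 CPM, with a log2 fold change of 6.35 (SE 1.22). Tert, the catalytic subunit of telomerase, was at 4.66 and 17.2 CPM against 0 to 0.356 CPM. These 3 genes were thus close to absent from the low libraries, and none of them was above 2.84 CPM in any normal library.

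Several of the 15 were well expressed in both groups. Rest, a repressor that keeps neuronal genes silent outside the nervous system, lay at 160 and 169 CPM in the high libraries and at 47.9, 42.3, 38.7 and 3.21 CPM in the low ones (log2 fold change 2.56, SE 0.72, edgeR adjusted p = 0.355). Smc6, part of a complex that acts in DNA repair, was at 309 and 144 CPM against 41.8 to 84.8 CPM. Sdk2, a cell adhesion molecule of the immunoglobulin superfamily, was at 79.3 and 298 CPM against 12.3 to 45.3 CPM. The rule of choice left no overlap between the groups for any of these. The SE was 0.47 for Smc6 and 0.67 for Sdk2, under the median SE of all genes, and choice by p favors a small SE. Zfp326, a zinc finger protein, was at 67.5 and 30.7 CPM against 7.48 to 11.2 CPM. Tjp1, which encodes the tight junction protein ZO-1, was at 14.3 and 38.7 CPM against 0.221 to 1.52 CPM. Its normal high libraries were at 0 and 0.463 CPM, so that the fold changes in AML and normal mice, 5.43 and -5.45, had opposite signs.

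The rest of the 15 were Pter, Gpr62, Art3, Abhd6, Ano7, Rgs5 and Ndufs5. Abhd6, a monoacylglycerol lipase, had the largest fitted log2 fold change among the 15 (8.02, SE 2.03), from 81.5 and 23.3 CPM in the high libraries and 0.0966 to 0.534 CPM in the low ones. Gpr62, an orphan receptor, had 3 counts in all low libraries together, and the ratio of the pooled rates was 177 with an exact 95% counting interval of 60 to 864. That interval covers counting error only. Ndufs5, a subunit of respiratory complex I, was at 164 and 209 CPM against 66.1, 49.7, 67.5 and 123 CPM, the smallest fold of the 15 (log2 1.52, SE 0.45). The DESeq2 adjusted p of these 15 genes ran from 1.49e-05 for Tox to 0.0289 for Ano7, except for Rgs5, to which DESeq2 gave none.

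The 15 leading genes with lower levels were chosen by the same rule, with a mean of at least 10 CPM in the low group. Thap11, a transcription factor of the THAP family, was at 0.434 and 0.387 CPM in high 1 and high 2 and at 53.4, 37.4, 13.2 and 65.9 CPM in low 1 to low 4. Its log2 fold change was -6.40 (SE 0.99, edgeR adjusted p = 0.102, DESeq2 adjusted p = 2e-12). Nkiras2, an inhibitor of NF-kappaB signaling, was at 0.759 and 0.387 CPM against 13, 101, 61.5 and 87.1 CPM (log2 fold change -6.55). Without low 1 it was the 1 gene that edgeR called lower. Strada, a pseudokinase that activates the kinase LKB1, was at 0.651 and 0.483 CPM against 24.1 to 55.4 CPM (log2 fold change -5.84, SE 0.91). By the rule of choice the groups did not overlap for any of the 3. Each gene was above 20 CPM in every normal library, high ones included.

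Of the remaining 12, Gbf1 (an exchange factor of Golgi traffic) was at 2.71 and 4.64 CPM against 49.3 to 115 CPM, Pi4k2a (a phosphatidylinositol kinase) at 0.434 and 0.387 CPM against 21.5 to 54.3 CPM, and Vps33a (endosome and lysosome fusion) at 0.542 and 0.773 CPM against 27.3 to 66.2 CPM. Ccnc, a cyclin of the Mediator complex, was at 0.434 and 0.58 CPM against 16 to 30 CPM, and Ints7, of the Integrator complex, at 1.41 and 1.26 CPM against 24.6 to 103 CPM. All 5 lay wholly below the low libraries, as the rule of choice required. Akt1, the growth factor kinase, was at 0.651 and 2.8 CPM against 35.6, 61.5, 61.1 and 46.1 CPM (log2 fold change -4.65, SE 0.90, edgeR adjusted p = 0.19, DESeq2 adjusted p = 9.79e-09). The other members were Dirc2 (a lysosomal carrier), Dnajc9 (a histone chaperone), Cyb5r4 (an oxidoreductase), Cic (a transcriptional repressor), Nubp1 (iron-sulfur cluster assembly) and Hars (histidyl-tRNA synthetase), with log2 fold changes of -6.25 (Cic) to -4.84 (Hars).

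**Figure D2:**
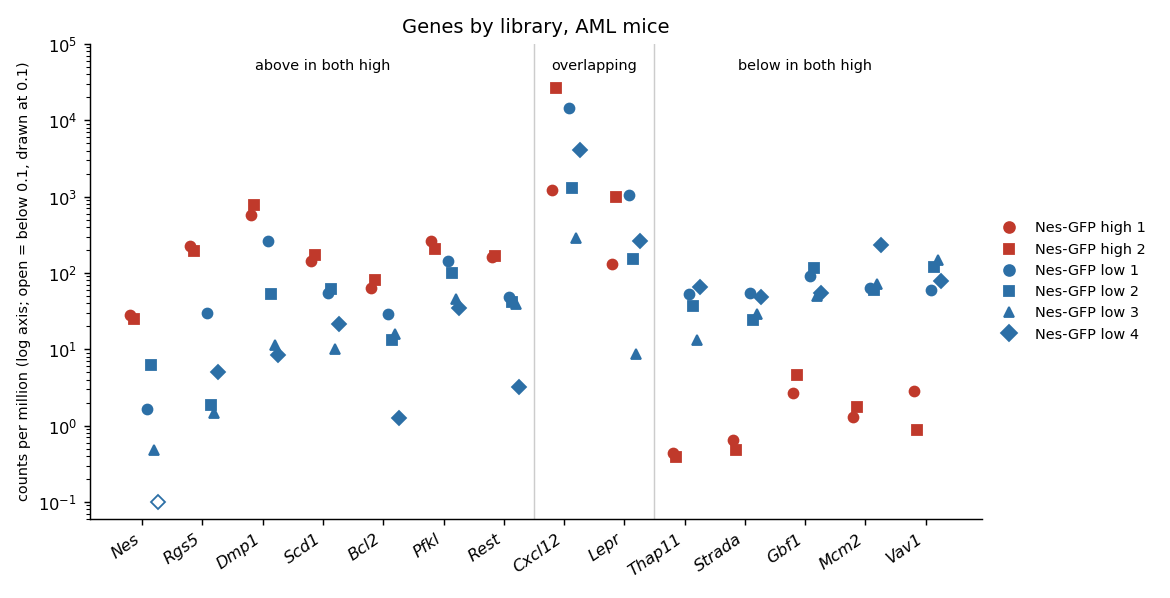
Level in CPM (vertical, log axis) of 14 genes in each of the 6 libraries of AML mice; red marks are Nes-GFP high and blue marks Nes-GFP low libraries, and an open mark is a library below 0.1 CPM. Nes to Rest lie above in both high libraries, Cxcl12 and Lepr overlap between the groups, and Thap11 to Vav1 lie below in both high libraries.

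Pericyte and smooth muscle genes leaned to the Nes-GFP high cells. Of 24 tested, 23 had a fold change above 0, with a median log2 fold change of 1.34 beside -0.03 over all genes, and 0 were called by edgeR or DESeq2. Both high libraries lay above all low ones for 5 of the 24 (Rgs5, Ndufa4l2, Vtn, Tagln and Synpo2), against 4.88% of all genes, and below them for 0. Rgs5, a brake on G protein signaling and a classical pericyte marker on chromosome 1 (chr1:169655501-169695813, GRCm38), was at 228 and 194 CPM in high 1 and high 2 and at 30.1, 1.88, 1.45 and 4.99 CPM in low 1 to low 4 (log2 fold change 4.69, SE 1.39, edgeR adjusted p = 0.377). In normal mice Rgs5 was at 112 and 922 CPM in the high and 4.31 to 59.6 CPM in the low libraries, so all 4 high libraries of the series were above all 10 low ones. Ndufa4l2, a hypoxia-induced mitochondrial protein, was at 288 and 93.7 CPM against 24 to 84.9 CPM. Vtn, the matrix protein vitronectin, was at 60.5 and 17.6 CPM against 14.1, 0.111, 0.193 and 0 CPM. Low 1 was thus the low library nearest to the high ones for Rgs5 and Vtn.

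Cspg4 and Acta2, also known from arterioles, overlapped between the groups. Cspg4, which encodes the pericyte proteoglycan NG2, was at 55.2 and 42.3 CPM in the high and 59.9, 56.6, 8.5 and 64.1 CPM in the low libraries (log2 fold change 0.30, SE 0.86), and -0.04 without low 3. Acta2, smooth muscle actin, was at 35.3 and 34.2 CPM against 49.3, 4.98, 13.9 and 67.8 CPM (0.27, SE 0.94), and -0.09 without low 2. Tagln, an actin-binding protein of smooth muscle and among the 5 wholly above, was at 101 and 65.4 CPM against 48.4, 39.1, 4.25 and 11 CPM. The exception to the direction of the list was Mcam, an adhesion molecule of vessel walls, with 2 counts in both high libraries together. The pericyte median stayed above 0 whichever library was left out, from 0.30 without high 2 to 2.29 without low 1. Kcnj8 and Pln had no count in either high library.

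The genes of sinusoidal Lepr+ stroma were carried by high 2. Over 25 such genes the median log2 fold change was 1.25, with 24 above 0, but it was -1.77 without high 2 and 2.15 without high 1, and 0 genes were called. Lepr, the leptin receptor, lay at 131 and 1002 CPM in high 1 and high 2 and at 1049, 152, 8.6 and 261 CPM in low 1 to low 4. Cxcl12 was at 1230 and 26834 CPM against 14591, 1294, 290 and 4121 CPM. Kitl, which encodes stem cell factor, was at 9.32 and 366 CPM against 305, 28.3, 9.37 and 12.6 CPM. For all 3, high 2 and low 1, both with high Xist, were the highest libraries of their groups and the groups overlapped. Low 4, which also had high Xist (540 CPM), lay below low 1 for all 3. The log2 fold changes were 0.83 (SE 1.51) for Lepr, 1.66 (SE 1.45) for Cxcl12 and 1.27 (SE 1.59) for Kitl, and without high 2 they were -1.20, -1.77 and -2.98.

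Vcam1, the adhesion molecule that holds stem cells to stroma, followed the same order, at 107 and 998 CPM against 544, 56.1, 48.3 and 146 CPM. Pdgfrb, a receptor of pericytes and mesenchymal cells at large, was at 154 and 571 CPM against 840, 122, 12.6 and 192 CPM. Their log2 fold changes turned from 1.67 to -0.62 and from 0.52 to -0.65 without high 2. Chrdl1, a BMP antagonist, was the only one of 25 Lepr+ stroma genes with both high libraries on top, against 4.88% of all genes. Chrdl1 was at 398 and 908 CPM against 290, 191, 46.9 and 49.9 CPM (log2 fold change 2.41, SE 1.21, edgeR adjusted p = 0.562). Angpt1, the vessel-stabilizing ligand of TIE2, was at 19.4 and 59.6 CPM against 20.1, 8.96, 0.386 and 21 CPM, so that the groups overlapped. Ly6a, which encodes the surface antigen Sca-1, was at 136 and 93 CPM against 46.4, 65.6, 55.2 and 100 CPM. Of 20 marrow stromal stem cell markers, 1 had both high libraries above and 2 had both below, against 4.88% and 12.4% of all genes. The 1 above was Nes, whose reporter was used for the sort, so it says nothing further about the list. The median was 0.54, or -0.41 without high 2.

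Skeletal lineages were represented in both fractions. Of 24 osteolineage genes, 18 had a fold change above 0 (median log2 1.14, and from 0.36 without high 2 to 2.29 without low 1), and both high libraries lay above all low ones for 3, Dmp1, Pth1r and Dlx5, against 4.88% of all genes. Dmp1, a matrix protein of osteocytes, was at 583 and 777 CPM in the high and 260, 53.7, 11.3 and 8.55 CPM in the low libraries (log2 fold change 3.26, SE 1.32, edgeR adjusted p = 0.512). Pth1r, the receptor of parathyroid hormone, was at 802 and 373 CPM against 343, 326, 82.6 and 22.4 CPM. Dlx5, a homeobox factor of osteoblasts, was at 106 and 130 CPM against 39.6, 73.2, 5.89 and 22.3 CPM. Mepe, another osteocyte protein, overlapped by a narrow margin, with 41.4 CPM in high 1 and 41.5 CPM in low 4. Osteolineage genes had a median of 1.39 in normal mice.

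Cartilage genes were high in single libraries rather than in a group. Their summed level was 72105 CPM in high 1 and 16971 CPM in high 2, against 26805, 43166, 7834 and 6644 CPM in low 1 to low 4. Chad, which encodes the cartilage matrix protein chondroadherin, alone reached 35438 CPM in high 1 and 6250 CPM in high 2, beside 3243, 21144, 1760 and 2093 CPM in the low libraries. The median log2 fold change of 20 chondrocyte genes was 1.05, and -0.08 without high 1. For Hapln1, a link protein of the same matrix, the values were 2051 and 438 CPM against 609, 1009, 206 and 173 CPM. Both genes overlapped between the groups, with high 1 and low 2 highest. Col10a1, of hypertrophic cartilage, and Matn1 had no count in either high library.

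Fibroblast genes had no common direction (23 tested, 12 above 0, median 0.14, and -1.71 without high 2), yet 5 of them lay wholly below in the high libraries, Dpt, Mfap5, Pi16, Dpp4 and Cd34, against 12.4% of all genes. DESeq2 called 5 of the list lower, against 6.08% of all genes. Pi16 and Dpp4, surface proteins that mark adventitial fibroblasts, were at 0.651 and 1.84 CPM against 15.5, 37.7, 162 and 80.3 CPM, and at 0.542 and 0.387 CPM against 4.78, 73.4, 72.4 and 1.78 CPM. Dpt, the matrix protein dermatopontin, was at 0 and 0.193 CPM (2 counts in both high libraries) against 1.3, 10.8, 3.67 and 76 CPM. Its pooled rate was 164 times higher in the low libraries (exact 95% counting interval 45.3 to 1361). Mfap5, of the microfibril, was at 0 and 0.193 CPM against 10.9, 0.553, 5.12 and 70.5 CPM, with a ratio of 158 (43.7 to 1312). Low 4 held most of the pooled low counts of Dpt (427 counts) and Mfap5 (396 counts). The intervals cover counting error only and not the spread between libraries. Levels of these 4 genes were highest in low 3 or low 4 except for Dpp4, which was highest in low 2.

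Matrix genes gave a middle picture, again carried by high 2. The median log2 fold change was 0.89 over 31 collagens, 0.86 over 15 basement membrane genes and 1.28 over 29 genes of matrix turnover, and without high 2 these were -0.33, -4.73 and -0.64. Col6a2 and Col6a1, chains of the collagen VI microfibril around cells, were at 967 and 4243 CPM against 1350, 908, 214 and 931 CPM and at 1180 and 3781 CPM against 1955, 928, 150 and 770 CPM. The groups overlapped, with low 1 inside the range of the high libraries for both. Ctsk, the collagen-degrading cathepsin K, was at 192 and 376 CPM against 225, 143, 28.2 and 42.7 CPM. Both high libraries were above all low ones for 0 collagens and 0 basement membrane genes, and for 1 matrix turnover gene, Mmp16, against 4.88% of all genes. Lamb3, a laminin chain of epithelia, had no count in the high libraries and was at least 10.5-fold lower there (floor of 3 counts per library).

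IGF genes had the second largest positive median after the pericyte list, 1.32 over 16 genes, which was -0.15 without high 2. Igfbp2, an IGF-binding protein, was at 11.8 and 12.9 CPM in high 1 and high 2 and at 0.76, 0, 0.0966 and 0.178 CPM in low 1 to low 4 (log2 fold change 5.73, SE 2.30, edgeR adjusted p = 0.508). Insr, the insulin receptor, went the other way, at 0.434 and 0.58 CPM against 3.37, 7.3, 18.6 and 67 CPM. Neither gene overlapped between the groups. Igf1, a growth factor of stroma and bone, was at 53 and 466 CPM against 34, 73, 19 and 107 CPM, and the groups overlapped.

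Markers of blood cells had lower levels in the Nes-GFP high libraries. The sort removed CD45+ cells, yet Ptprc, the gene of CD45, was found in every library, at 14.7 and 6.47 CPM in high 1 and high 2 and at 86.1, 204, 467 and 194 CPM in low 1 to low 4 (log2 fold change -4.23, SE 2.33). Ptprc was chosen after its values were seen, as was Pecam1, the gene of CD31, at 0.542 and 0.58 CPM against 8.25, 0.775, 10.4 and 1.42 CPM. Both were lower in the high libraries than in every low library. All 17 pan-hematopoietic genes had a fold change below 0, with a median of -3.37, and the high libraries lay wholly below for 10 of them, against 12.4% of all genes. DESeq2 called 6 of them lower, against 6.08% of all genes, and edgeR 0. Vav1, an exchange factor of blood cell signaling, was at 2.82 and 0.87 CPM against 60.1, 121, 149 and 78 CPM (log2 fold change -5.51, edgeR adjusted p = 0.49, DESeq2 adjusted p = 0.0079). Fermt3, the integrin activator kindlin-3, was at 13 and 26.7 CPM against 93.6, 179, 417 and 268 CPM.

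Myeloid genes were found in all 6 libraries. Neutrophil genes summed to 12643 and 2209 CPM in high 1 and high 2 and to 7356, 17520, 93217 and 8216 CPM in low 1 to low 4, and monocyte and macrophage genes to 2265 and 664 CPM against 2368, 17111, 41452 and 2091 CPM. Low 3 held the most of both, and the groups overlapped. All 23 neutrophil genes had a fold change below 0 (median -1.91, 5 wholly below: Mpo, Ctsg, Mmp9, Itgam and Padi4), and so had all 21 monocyte and macrophage genes (median -4.58, 11 wholly below), against 12.4% of all genes wholly below. With TMM-scaled CPM, 4 neutrophil genes and 7 monocyte and macrophage genes lay wholly below. Irf8, a transcription factor of monocyte fate, was at 1.63 and 2.51 CPM against 90.8, 156, 366 and 66.8 CPM (log2 fold change -6.12, SE 1.91, edgeR adjusted p = 0.415, DESeq2 adjusted p = 0.000566). Itgam, which encodes CD11b, was at 0.434 and 0.676 CPM against 9.23, 49.1, 103 and 33.5 CPM. C1qa, a complement gene of macrophages, had no count in either high library. No median of these lists crossed 0 with any library left out, and without low 3 the monocyte and macrophage median was -2.90.

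Lymphoid, red cell and platelet genes were thinner. Only 5 of 19 B cell and plasma cell genes and 2 of 20 T cell and NK cell genes were tested. Cd3g, which was not tested, had no count in the high libraries. Ighm, the immunoglobulin heavy chain, was at 1.41 and 0.966 CPM against 73.5, 54.2, 136 and 21 CPM. Erythroid genes summed to 53.2 and 38.2 CPM in the high libraries and to 24.9, 31.2, 138 and 7816 CPM in the low ones, and their median of -4.52 was -0.59 without low 4. Klf1, the master factor of red cells, was at 428 CPM in low 4 and between 0.542 and 1.16 CPM in the other 5 libraries. Itga2b, the platelet integrin chain, was at 4.34 and 18.2 CPM against 0.356 to 1.26 CPM. Pf4, Gp9 and Gp5 had no count in either high library. They did not reach 10 counts in 2 of the 6 libraries and were not tested, so they show no contrast between the groups. Endothelial genes had a median of -3.72 over 10 tested, with 2 above 0 and 3 wholly below, against 12.4% of all genes. Cd93 was at 0.325 and 0.966 CPM against 12.7, 81.3, 59.5 and 1.96 CPM. Plvap went the other way in high 1 only, at 27.6 and 0.0966 CPM against 2.61, 0.111, 1.84 and 0.178 CPM. Flt1, Flt4, Tek and Emcn were without a count in both high libraries. Schwann cell genes split (6 of 12 above 0), with Mbp, the myelin basic protein, at 1.41 and 1.16 CPM against 18.2 to 75.9 CPM and Sox10 without a count in the high libraries.

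**Figure D3:**
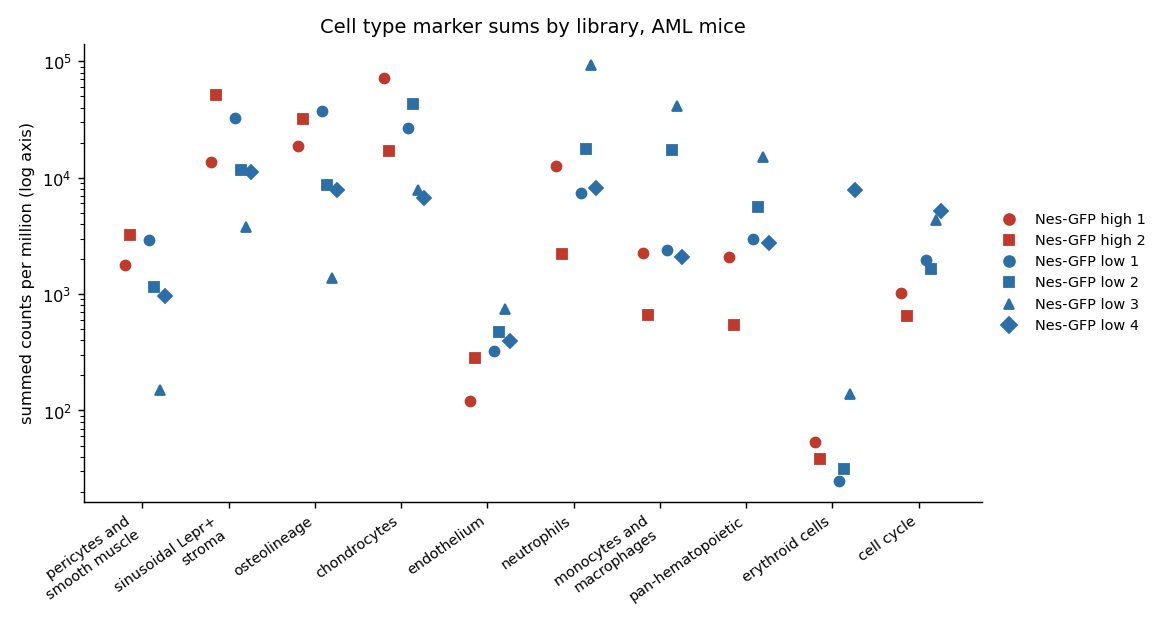
Summed CPM (vertical, log axis) of the genes of 10 lists in each of the 6 libraries of AML mice; red marks are Nes-GFP high and blue marks Nes-GFP low libraries. Pan-hematopoietic genes summed to 2071 and 542 CPM in the high and 2771 to 14903 CPM in the low libraries, low 3 was highest for neutrophil and monocyte genes and low 4 for erythroid genes, and the pericyte and Lepr+ stroma sums of low 1 lay between those of the high libraries.

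Genes of the MLL-AF9 leukemia program had no common direction (15 tested, 7 above 0, median -0.19). Myb, a transcription factor that MLL-AF9 leukemia depends on, was at 0.217 and 0.193 CPM in high 1 and high 2 and at 31.6, 22.6, 63.5 and 11.6 CPM in low 1 to low 4 (log2 fold change -6.98, SE 2.34, edgeR adjusted p = 0.452, DESeq2 adjusted p = 0.00117). Eya1 and Cdk6 were lower in both high libraries as well, Eya1 at 0.325 and 0.387 CPM against 9.12 to 22 CPM and Cdk6 at 10.7 and 6.96 CPM against 61.8 to 293 CPM. DESeq2 called these 3 of the 15 lower, against 6.08% of all genes. In contrast Bcl2, the inhibitor of apoptosis, was at 63.1 and 80.8 CPM in the high libraries and at 28.6, 13.2, 15.9 and 1.25 CPM in the low ones (log2 fold change 2.52, SE 1.09, edgeR adjusted p = 0.52). Hoxa7 was the other member with both high libraries on top. Blood cell genes were lower in the high libraries too, as were Myb, Eya1 and Cdk6 but not Bcl2, and their part in these values was not tested. Among the low libraries the pan-hematopoietic sum was highest in low 3 (14903 CPM) and lowest in low 4 (2771 CPM). Myb was highest in low 3 (63.5 CPM) and Cdk6 in low 4 (293 CPM). In normal mice the log2 fold changes of Myb, Eya1, Cdk6 and Bcl2 were -5.70, -6.43, -5.34 and -1.73. The median of the list there was -1.44.

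Genes of the cell cycle had lower levels in Nes-GFP high cells. Of 32 genes, 31 had a fold change below 0, with a median log2 fold change of -2.53 beside -0.03 over all genes, and the median ran from -4.51 without high 1 to -2.15 without low 3. The high libraries lay wholly below the low ones for 15 of the 32, against 12.4% of all genes, 12 passed an unadjusted p of 0.05, against 7.35%, and DESeq2 called 13, against 6.08%. edgeR called 0. The 4 members of smallest p were Mcm2, Mcm5, Birc5 and Mcm3, and all but Birc5 encode subunits of the replicative helicase. Mcm2 was at 1.3 and 1.74 CPM in high 1 and high 2 and at 64.4, 59.3, 71 and 231 CPM in low 1 to low 4 (log2 fold change -5.88, SE 1.48, edgeR adjusted p = 0.287, DESeq2 adjusted p = 1.49e-05). Mcm5 was at 1.52 and 1.64 CPM against 97.1, 45.2, 216 and 251 CPM, and Mcm3 at 11 and 1.84 CPM against 148, 40.9, 98.2 and 370 CPM. No low library was under 40.9 CPM and no high library over 11 CPM for these 3 genes. Birc5, which encodes the mitotic regulator survivin, was at 2.28 and 9.57 CPM against 57.2, 15.4, 187 and 169 CPM. The sum over the list was 1015 and 645 CPM against 1971, 1646, 4335 and 5154 CPM, highest in low 3 and low 4, the libraries with the most neutrophil and the most erythroid RNA. The median was -2.15 without low 3 and -2.31 without low 4. Without both, edgeR called 0 genes, as it did with all libraries, so that count does not bear on this list. In normal mice the median of the 32 genes was -1.92, with 1 of them above 0.

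Promoters of cell cycle genes are known to carry CCAAT boxes, the sites of the factor NF-Y, and the 3 helicase genes are shown as members of the same complex with values given above. Each sequence is the 250 bases before the annotated start, read 5′ to 3′ on the gene's strand, from RefSeq (GRCm38.p6), with CCAAT or its reverse complement ATTGG in capitals. Mcm2 is at chr6:88898781-88899030 on the minus strand, Mcm5 at chr8:75109259-75109508 on the plus strand and Mcm3 at chr1:20820313-20820562 on the minus strand.
Mcm2: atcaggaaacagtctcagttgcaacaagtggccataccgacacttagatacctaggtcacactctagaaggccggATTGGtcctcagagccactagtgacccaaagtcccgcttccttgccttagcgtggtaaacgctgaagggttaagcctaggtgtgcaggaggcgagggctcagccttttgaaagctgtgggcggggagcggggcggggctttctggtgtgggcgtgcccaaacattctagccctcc
Mcm5: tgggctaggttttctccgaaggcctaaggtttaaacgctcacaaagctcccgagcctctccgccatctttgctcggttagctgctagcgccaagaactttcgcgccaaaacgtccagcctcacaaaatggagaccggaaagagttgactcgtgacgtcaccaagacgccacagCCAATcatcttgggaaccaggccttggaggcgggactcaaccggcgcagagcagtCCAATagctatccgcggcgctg
Mcm3: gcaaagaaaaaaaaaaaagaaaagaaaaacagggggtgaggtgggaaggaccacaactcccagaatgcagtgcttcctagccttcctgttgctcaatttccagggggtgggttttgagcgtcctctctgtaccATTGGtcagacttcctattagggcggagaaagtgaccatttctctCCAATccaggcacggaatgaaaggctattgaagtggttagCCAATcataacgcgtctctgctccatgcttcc

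Mcm2 held 1 such match, beginning 175 bases before the start, Mcm5 held 2, at 77 and 22 bases, and Mcm3 held 3, at 117, 72 and 32 bases. The 250 bases of Birc5, the third of the list by p, held 0. Of all 32851 promoters of this length, 33.8% held CCAAT or ATTGG. A promoter was found for 25 of the 32 cell cycle genes (78.1%), fewer than the 80% set as the minimum, so the share of the list that holds the motif is void and not given. A match describes the letters in this window only.

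Among inhibitors of the cycle and apoptosis genes there was no common direction (24 tested, 11 above 0, median -0.17). Bak1, a pore-forming killer protein of mitochondria, had no count in either high library and was at 11.2, 0.996, 13.8 and 40.8 CPM in the low ones, at least 54.3-fold lower in the high libraries (floor of 3 counts per library). Wholly below lay 3 of the 24, Bak1 and Bid among them, and wholly above lay 2, Bcl2 and Cdkn1c, against 12.4% and 4.88% of all genes. Casp9, the initiator caspase, was at 0.108 and 1.64 CPM against 32.5, 23, 25.2 and 1.42 CPM and overlapped through low 4.

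Energy metabolism was level as a whole, with single exceptions. The median log2 fold change was -0.06 over 75 nuclear subunits of oxidative phosphorylation, 0.06 over 13 mitochondrially encoded proteins, -0.05 over 29 citric acid cycle genes and -0.12 over 23 glycolysis genes. Uqcrc1, a core subunit of complex III, was at 60.8 and 133 CPM in high 1 and high 2 and at 452, 286, 547 and 793 CPM in low 1 to low 4 (log2 fold change -2.20, SE 0.62, edgeR adjusted p = 0.364, DESeq2 adjusted p = 0.00549). Ndufs3 of complex I was at 102 and 128 CPM against 77.1, 79.6, 65.7 and 56.6 CPM, and it lay wholly above, as did Ndufs5 of the same complex, while Ndufb10 and Ndufb3 of that complex lay wholly below. Of the 75 subunits these orders were met by 2 above and 5 below, against 4.88% and 12.4% of all genes. With TMM-scaled CPM, 4 lay above and 2 below, beside 1180 and 1549 of all 16004 genes, and Ndufb10 overlapped. In the citric acid cycle the high libraries lay wholly below for 7 of 29 genes, or 3 of 29 with TMM-scaled CPM, against 12.4% of all genes. Fh1, fumarase, was at 13.8 and 1.64 CPM against 101, 129, 135 and 208 CPM (log2 fold change -3.93, SE 0.98). Pdhb, a subunit of pyruvate dehydrogenase, was at 19.9 and 1.84 CPM against 103, 177, 160 and 107 CPM (-3.36, SE 0.89). In both, high 2 was the lower of the high libraries.

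Glycolysis genes pointed both ways. Pfkl, the liver-type phosphofructokinase, was at 261 and 207 CPM against 145, 98.5, 45.3 and 35.1 CPM (log2 fold change 1.79, SE 0.64, edgeR adjusted p = 0.479). Slc16a1, the lactate carrier MCT1, was at 0.759 and 4.64 CPM against 22.1, 52.5, 11 and 52.9 CPM, and Pgk1, phosphoglycerate kinase, at 8.35 and 47.3 CPM against 65.4, 133, 129 and 92.2 CPM. No value of Pfkl, Slc16a1 or Pgk1 in a high library fell within the range of the low ones.

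Antioxidant and glutathione genes, of interest to the study, had no common direction. Of 39 tested, 14 had a fold change above 0, and the median was -0.22. The high libraries lay wholly above for 0 and wholly below for 5 (12.4% of all genes), Gclc, Gpx1, Gstm1, Txn2 and Msrb1. Gclc, the catalytic subunit of the enzyme that limits glutathione synthesis, was at 0.759 and 0.193 CPM in high 1 and high 2 and at 11.6, 15.5, 24.8 and 46.7 CPM in low 1 to low 4 (log2 fold change -5.40, SE 2.11, edgeR adjusted p = 0.494, DESeq2 adjusted p = 0.00865). Gpx1, a glutathione peroxidase that blood cells hold in quantity, was at 476 and 237 CPM against 733, 854, 1597 and 1861 CPM. Srxn1, sulfiredoxin, was at 83.6 and 21 CPM against 19.5, 35.5, 8.79 and 16 CPM. It overlapped, with high 1 above every low library. With TMM-scaled CPM, 2 lay wholly below, Gclc and Gpx1, and 1 wholly above, the selenoprotein gene Selo.

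In sterol and lipid synthesis (26 tested, 18 above 0, median 0.25) the high libraries lay wholly above for 3 genes, Scd1, Dhcr7 and Lss, and wholly below for 2, Mvk among them, against 4.88% and 12.4% of all genes. Scd1, which makes monounsaturated fatty acids, was at 144 and 171 CPM against 54.5, 60.8, 10 and 21.5 CPM (log2 fold change 2.35, SE 0.80, edgeR adjusted p = 0.453). Dhcr7, the last enzyme of cholesterol synthesis, was at 39.9 and 76.5 CPM against 17.7, 3.43, 15.9 and 1.6 CPM, while Mvk, mevalonate kinase of the same route, was at 0 and 0.483 CPM against 26.6, 22.5, 6.66 and 25.6 CPM. The pathway thus held genes that separated the groups in both directions. Adipocyte genes split too (7 of 14 above 0, median 0.04), with Fabp4, a fatty acid carrier, at 76.8 and 18.1 CPM against 0.534 to 12.5 CPM and Acsl1, a fatty acid CoA ligase, at 1.19 and 1.35 CPM against 41.1 to 113 CPM. DESeq2 called Acsl1 lower, with an adjusted p of 1.62e-05.

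Stress and dissociation genes differed more between libraries than between groups. Immediate early genes, which tissue digestion is known to induce, summed to 38941 and 11898 CPM in high 1 and high 2 and to 24810, 35649, 11601 and 4881 CPM in low 1 to low 4. Their median log2 fold change was 0.64, with 26 of 28 above 0, and -0.55 without high 1. Heat shock genes had a median of 0.54, and -0.57 without high 1. Egr2, an immediate early transcription factor, was at 829 and 207 CPM against 213, 428, 44 and 47.9 CPM, and overlapped.

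Genes of endoplasmic reticulum stress and protein folding had a steadier lean. Their median was 0.62 over 24 genes and stayed between 0.30 and 0.71 with any library left out, and both high libraries lay above all low ones for 4 (Hspa5, Pdia3, Ern1 and Eif2s1), against 4.88% of all genes, and below them for 2. Hspa5, the main chaperone of the endoplasmic reticulum, was at 1637 and 1587 CPM against 1369, 1030, 711 and 521 CPM (log2 fold change 1.08, SE 0.52), and Pdia3, a disulfide isomerase, at 1130 and 1083 CPM against 823, 747, 668 and 563 CPM (0.91, SE 0.40). Both had edgeR adjusted p values over 0.5 (0.545 and 0.52). The gap between the groups was narrow for both beside the levels. Sdf2l1, a partner of that chaperone, went the other way, at 4.55 and 0.966 CPM against 34 to 82.1 CPM.

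Interferon and antigen presentation genes had no common direction, with medians of 0.32 over 31 and 0.05 over 25 genes and of -2.79 and -0.95 without high 2. Isg15, a ubiquitin-like interferon target, was at 24.9 and 139 CPM in high 1 and high 2 and at 30.1, 5.53, 4.54 and 1.6 CPM in low 1 to low 4 (log2 fold change 3.17, SE 1.04, edgeR adjusted p = 0.44, DESeq2 adjusted p = 0.0392). Irf9, the factor that carries the interferon signal to DNA, was at 20.8 and 1.35 CPM against 70.5, 49.1, 90 and 45.8 CPM. The class II genes H2-Aa, H2-Eb1, H2-DMa and Cd74, which antigen-presenting blood cells carry, were the 4 antigen presentation genes lying wholly below, against 12.4% of all genes. H2-Aa was at 1.08 and 1.64 CPM against 7.06, 65, 213 and 81.9 CPM, highest in low 3 as were the myeloid sums.

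**Figure D4:**
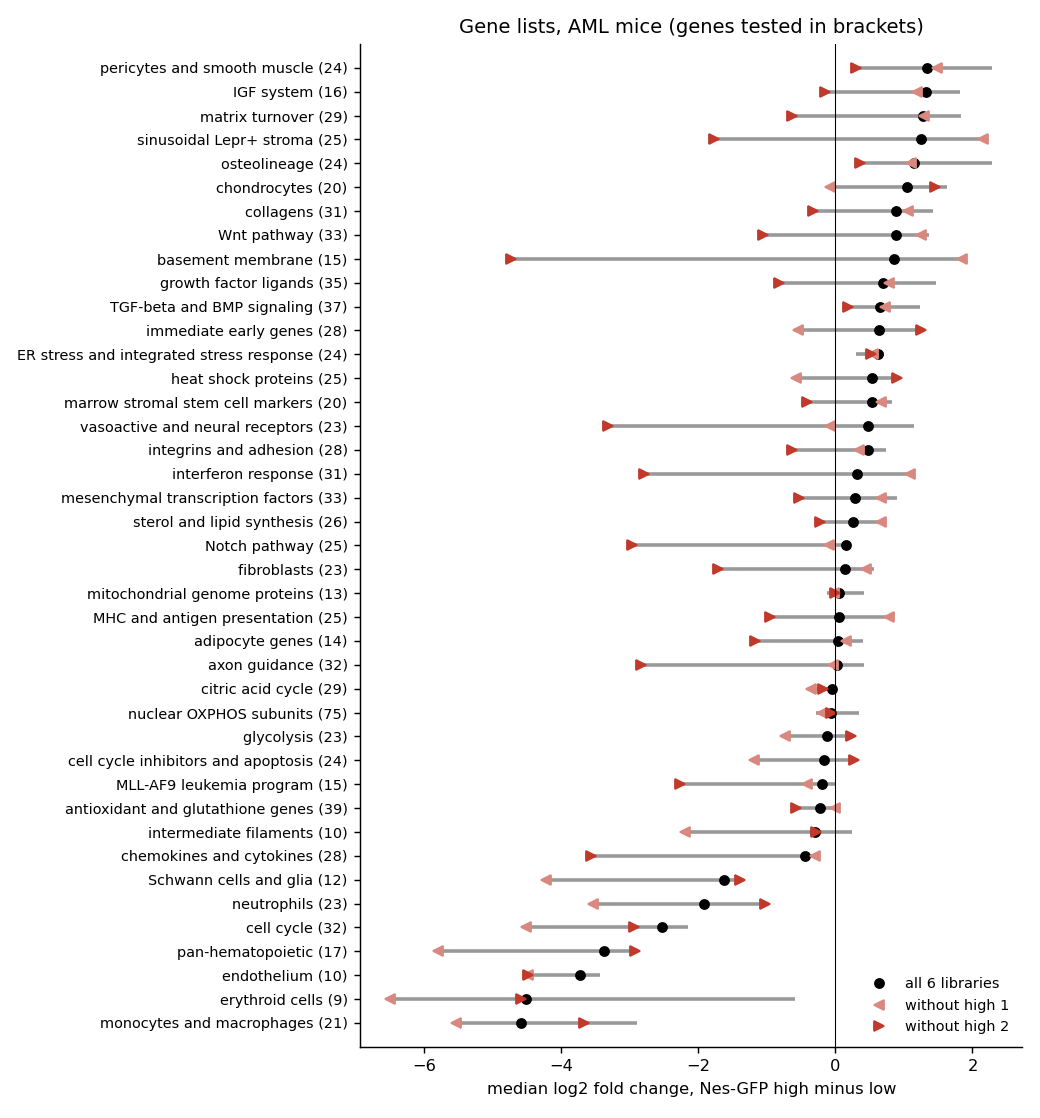
Median log2 fold change of Nes-GFP high minus low in AML mice (horizontal) for each gene list with 9 or more genes tested (vertical, number tested in brackets). Black points use all 6 libraries, grey bars span the values with each library left out, and triangles leave out high 1 or high 2; the lists of blood cells and of the cell cycle stay below 0 throughout, the pericyte, osteolineage, TGF-beta and endoplasmic reticulum stress lists stay above 0, and the Lepr+ stroma and matrix lists turn without high 2.

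Ligands and receptors were tested by pathway. TGF-beta and BMP genes had a median log2 fold change of 0.65 (37 tested, 27 above 0), from 0.19 without high 2 to 1.24 without low 1, and both high libraries lay above all low ones for 4, Bmp2, Bmp5, Chrdl1 and Fstl3, against 4.88% of all genes, and below them for 1. Bmp2, a bone-inducing ligand, was at 71.7 and 38.6 CPM against 30.5, 8.08, 0.483 and 0.89 CPM. Fstl3, a secreted antagonist of activin, was at 8.67 and 20.3 CPM against 0, 0, 0.966 and 0 CPM (log2 fold change 5.96, SE 1.95, edgeR adjusted p = 0.44). Its target Inhba, the chain of activin A, was at 0.217 and 0.483 CPM against 23.8, 8.63, 37.9 and 29.7 CPM (-5.89, SE 2.34, edgeR adjusted p = 0.5, DESeq2 adjusted p = 0.0108). Antagonist and ligand thus lay on opposite sides, with no overlap for either.

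Growth factor ligands (35 tested, median 0.69) turned to -0.82 without high 2. Mdk, the heparin-binding factor midkine, was at 24.4 and 257 CPM against 40.5, 11.7, 7.63 and 33.7 CPM. Chemokines and cytokines had a median of -0.45 over 28 genes, and the high libraries lay wholly below for 5, Flt3l, Ccl3, Ccl4, Ccl9 and Cxcl16, against 12.4% of all genes. Flt3l, a growth factor of dendritic and early blood cells, was at 0.108 and 0 CPM against 3.8, 6.2, 5.41 and 4.63 CPM, a pooled ratio of 99 (exact 95% counting interval 17.5 to 3931). Ccl9, a chemokine of myeloid cells, was at 2.82 and 8.7 CPM against 35.1, 120, 441 and 40.4 CPM. Low 3 was the highest library both for Ccl9 and for the myeloid sums.

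In the Notch pathway (25 tested, 14 above 0, median 0.15) both high libraries were above for Dtx2, Dtx3 and Rfng and below for Maml2, Mfng, Lfng and Rbpj. These 3 and 4 genes compare with 4.88% and 12.4% of all genes. Dtx2, a ubiquitin ligase of the pathway, was at 38.2 and 82.9 CPM against 20.3, 0.664, 17.2 and 0.712 CPM. Lfng, a glycosyltransferase that tunes the receptors, was at 0.217 and 4.35 CPM against 16.3, 29.1, 16.4 and 32.8 CPM. Wnt genes had a median of 0.88 over 33 tested, which was -1.05 without high 2. Frzb was the only one wholly above, against 4.88% of all genes. Wnt5a and Wnt4 were each high in high 2 alone among the high libraries, Wnt5a at 0.651 and 91.6 CPM and Wnt4 at 0.867 and 127 CPM, against 0.386 to 12.4 CPM and 1.64 to 31.8 CPM. Their log2 fold changes of 3.23 and 2.76 were -2.80 and -3.34 without high 2.

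Guidance, adhesion and receptor lists had medians of 0.02 (32 axon guidance genes), 0.48 (28 integrin and adhesion genes) and 0.48 (23 vasoactive and neural receptors), each below 0 without high 2. Sema4d, a semaphorin of immune cells, was at 1.3 and 1.16 CPM in high 1 and high 2 and at 27.4, 36.4, 123 and 161 CPM in low 1 to low 4 (log2 fold change -5.89, SE 1.30, edgeR adjusted p = 0.258, DESeq2 adjusted p = 9.37e-07). Sema3c, a secreted semaphorin of vessels, was at 49.2 and 13.7 CPM against 4.02, 1.88, 0.483 and 1.25 CPM. Itga4 and Itgb3, chains of the receptors for VCAM1 and vitronectin, were at 0.867 and 1.93 CPM against 10.5 to 159 CPM and at 0.108 and 0.0966 CPM against 3.43 to 20.7 CPM. The high libraries thus held less of both integrin chains than any low library. They held more of the ligand gene Vtn, by a narrow margin between high 2 (17.6 CPM) and low 1 (14.1 CPM). The other ligand gene, Vcam1, overlapped between the groups, at 107 and 998 CPM against 48.3 to 544 CPM. Adora2b, an adenosine receptor, was at 0.217 and 0.387 CPM against 12.7, 53.9, 81.8 and 0.712 CPM. Among mesenchymal transcription factors (33 tested, median 0.29) Foxp2 and Msx1 lay wholly above and Msx2 and Zeb2 wholly below (4.88% and 12.4% of all genes), with Foxp2 at 39.2 and 102 CPM against 16.6, 18.4, 4.06 and 3.92 CPM. In the list of 10 intermediate filament genes tested, Nes was the 1 gene wholly above and Lmnb1 the 1 wholly below, against 4.88% and 12.4% of all genes. The place of Nes follows from the sort by its reporter.

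The same comparison was made in normal mice, without leukemia. In the normal comparison edgeR called 0 genes, and at an unadjusted p below 0.05 there were 310 (1.94%) with higher and 1554 (9.71%) with lower levels, and DESeq2 called 85 higher and 1576 lower. Without normal high 2, edgeR called 9 higher and 265 lower. Normal high 1 stood apart, with 14.7% of the 10494 genes above at 0 counts against 0.343% in normal high 2, and without it 543 and 1207 genes had that unadjusted p in the 2 directions. Both normal high libraries lay above all 6 low ones for 393 genes (2.46%) and below them for 1585 (9.9%). Of the 1176 genes lower in AML mice at that p, 855 (72.7%) had a negative fold change in normal mice and 311 (26.4%) were lower there at that p too, which is 20% of the genes lower in normal mice. Of the 315 higher ones, 176 (55.9%) had a positive fold change in normal mice and 19 (6.03%) were higher there, which is 6.13% of the genes higher in normal mice. Over all genes, the fold changes of the AML and the normal comparison had a Spearman correlation of 0.173, as a description over 16004 genes whose libraries were fitted together.

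The 4 high libraries of the series lay above all 10 low ones for 15 genes and below them for 160, of which 13 and 138 averaged 10 CPM or more in the higher group. Beside Rgs5, the genes above included Pdgfc, a growth factor of mesenchymal cells, and Krt10, a keratin outside the intermediate filament list, both picked with their values known. Pdgfc was at 38.4 and 28.9 CPM in high 1 and high 2 and at 12.5, 17.2, 0.483 and 0.178 CPM in low 1 to low 4. Cyb5r4 and Vps33a, of the 15 leading lower genes, were among those below, as was Gna13, a G protein subunit that was also chosen after its values were seen. Gna13 was at 3.58 and 1.35 CPM against 66.1, 44.8, 131 and 60 CPM, and at 0.487 and 2.31 CPM against 31 to 75.8 CPM in normal mice.

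The difference between the comparisons, AML minus normal, was tested in the same fit, and 0 genes passed an adjusted p of 0.05 in edgeR. At an unadjusted p under 0.05, the difference was positive for 1002 genes (6.26%) and negative for 575 (3.59%), and DESeq2 called 484 and 267. Without normal high 2, edgeR called 192 positive and 21 negative differences, without normal high 1 it called 1, negative, for Ash1l, and without low 1 it called 1, negative, for Nkiras2. The smallest p values belonged to Thap11, Nkiras2, Strada, Gbf1 and Ccnc, all with an edgeR adjusted p of 0.141. Thap11 was at 46 and 48.1 CPM in the normal high libraries, against 25.3 to 67.9 CPM in normal low ones, and its difference was -6.87 on the log2 scale. For Ccnc the normal high libraries were at 76.7 and 45.7 CPM against 6.2 to 29.4 CPM, a fold change of 1.90 beside -5.27 in AML mice. All 5 genes were lower in the 2 AML high libraries than in each of the other 12 libraries. Scd1 had a fold change of -2.94 in normal mice beside 2.35 in AML mice, with an edgeR adjusted p of 0.262 for the difference.

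**Figure D5:**
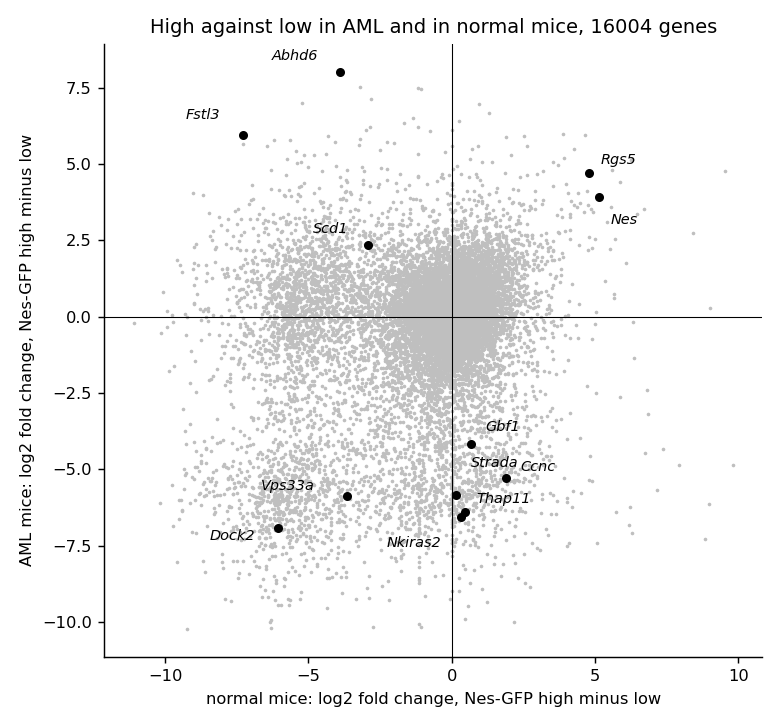
Log2 fold change of Nes-GFP high minus low in AML mice (vertical) against that in normal mice (horizontal) for 16004 genes, with named genes in black. Nes and Rgs5 lie at the upper right, Dock2 and Vps33a at the lower left, Thap11, Nkiras2, Strada, Gbf1 and Ccnc below 0 in AML mice only, and Scd1, Fstl3 and Abhd6 above 0 in AML and below 0 in normal mice.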

How the data were processed

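RNA of sorted Nes-GFP+ stromal cells was amplified by Smart-seq2, without molecular identifiers, and sequenced. The authors deposited a table of counts of reads per gene symbol, not normalized. The submitters' processing notes name Trim Galore 0.4.1, TopHat2 2.1.0, featureCounts and DESeq2 1.14.1, and the mm10 build (GRCm38). Library totals of the 6 AML libraries ran from 5615941 to 10353438 counts, and 2 library columns that match no sample were not used. For 13 symbols that stand on 2 lines, the lines were kept apart and the counts of such genes are uncertain, as are those of overlapping and near-identical genes.

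Samples were grouped by their labels. Genes with at least 10 counts in 2 or more of the 6 AML libraries were tested with edgeR 4.0.16 (TMM, quasi-likelihood test, two-sided, Benjamini-Hochberg over all 16004 genes tested, threshold 0.05), with all 14 libraries in a fit of 4 groups. The difference between the AML and normal comparisons was the interaction contrast of that fit. Named genes were Nes, a set of niche genes, the 15 genes of smallest p in each direction among those whose groups did not overlap and whose higher group had a mean of at least 10 CPM (predicted Gm and Rik genes left out), up to 4 members of smallest p in each list with any marker at 0, and the 5 genes of smallest p for the difference. The members, the gene lists and the tests were chosen with earlier results of these data known. Alternatives were DESeq2 1.42.0, limma 3.58.1 (voom with quality weights), other scalings, filters and dispersions, the replicate number as a block, and leaving out libraries. A gene wholly above or below had no overlap between the groups in CPM of raw totals. Counting intervals are exact, and together with the floor of 3 counts they cover counting error only. Gene positions and promoters are from RefSeq and GENCODE on GRCm38. R 4.3.3, Python 3.11.15, pandas 2.3.3, numpy 2.4.6, scipy 1.17.1 and matplotlib 3.10.9 were used. The fits were tested on simulated data.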

Additional observations from a re-analysis of the deposited data

Results flagged for a closer look

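Each value here lay farther from the other 3 Nes-GFP low libraries of AML mice than Dixon's 95% critical value allows for a group of 4. Of 167 groups of 4 values tested, 9 (5.39%) were flagged, and chance flags about 1 in 20. Low 4 had the highest Klf1 (428 CPM) and Mcm2 (231 CPM) and the lowest Rest (3.21 CPM) and Casp9 (1.42 CPM). Low 3 had the lowest Cspg4 (8.5 CPM) and Mvk (6.66 CPM) and the highest Fstl3 (0.966 CPM). Low 1 had the highest Vtn (14.1 CPM) and the highest sum of sterol and lipid synthesis genes (1535 CPM).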

How the results depend on the processing

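The edgeR counts of 0 genes called higher and 0 called lower were met again with DESeq2 size factors, TMMwsp, library totals only, robust dispersions, no filter, a mean of at least 10 CPM, and the AML libraries fitted alone. Other tools gave more: DESeq2 called 66 higher and 973 lower in all libraries and 96 and 1109 in the AML libraries alone, and limma voom with quality weights called 1 higher and 0 lower. With single libraries left out, edgeR called 0 to 0 higher and 0 to 1 lower genes, the 1 being Nkiras2 without low 1. For the difference between AML and normal mice DESeq2 called 751 genes and edgeR between 0 and 213 with single libraries left out, 1 without low 1, 1 without normal high 1 and 213 without normal high 2. A fit without 1 of the high libraries takes the spread of the lone one from the other groups. The causes were not tested.

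Among 123 named genes, 15 of 3185 alternative values had the opposite sign, in 9 genes, and 136 newly passed the threshold, 66 of them in DESeq2 and 68 in DESeq2 on the AML libraries alone. With libraries left out, the log2 fold change ran from -0.04 to 0.52 for Cspg4, -0.09 to 0.84 for Acta2, -1.20 to 2.27 for Lepr, -1.77 to 3.14 for Cxcl12, -2.98 to 3.73 for Kitl, -0.62 to 2.97 for Vcam1, -0.65 to 1.99 for Pdgfrb, -2.80 to 4.22 for Wnt5a and -3.34 to 4.33 for Wnt4. The lowest values were without high 2, except for Cspg4 (without low 3) and Acta2 (without low 2). Pdgfrb was at -0.20 without low 3 and low 4 together, an alternative chosen after seeing the data, as were TMM-scaled CPM, list counts without low 3 or low 4, and genes without a count placed at their bound. Of 1161 alternative medians of 43 gene lists, 38 moved beyond the spread, 15 of them without high 2 and 10 without high 1.

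With the replicate number as a block, edgeR called 0 genes in either direction, with unadjusted p values below 0.05 for 147 higher and 762 lower genes and a smallest adjusted p of 0.851. Under the block the log2 fold changes of Lepr, Cxcl12, Kitl, Vcam1 and Pdgfrb were -0.60, -0.04, -0.68, -0.07 and -0.81. The numbers do not pair the samples: the deviations of same-numbered libraries correlated at -0.175 and -0.11, and Xist was at 5.42 CPM in high 1 and 322 CPM in low 1.

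The median standard error was 1.28 on the log2 scale. Genes below 3 counts per library (0.29 to 0.534 CPM) cannot be told from 0.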
